A study of Mus musculus with 3 samples.

Results

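The 10 Sox genes described here are Sox2, Sox4, Sox5, Sox6, Sox8, Sox9, Sox11, Sox12, Sox17 and Sox18. They were taken by gene symbol from a table of 19381 genes, and all 10 were found. The table holds 3 RNA sequencing libraries, replicates 1 to 3, of incisor mesenchyme digested from the proximal end of the mouse incisor. All 3 belong to a single group, DKO, with the genotype Gli1-CreER;Arid1afl/fl;Arid1bfl/fl, at the age of 1 month, collected 4 days after tamoxifen (1.5 mg per 10 g body weight). In these mice the Gli1 gene drives a Cre recombinase that tamoxifen activates, so recombination of Arid1a and Arid1b, which encode subunits of the BAF complex, a remodeler of chromatin, is limited to cells with Gli1 activity, while the tissue also holds cells without it. Control mice were not analysed here, so every comparison below is between genes or between DKO libraries. The labels do not say whether each library is a separate animal, and an SD over libraries may therefore be technical.

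Sox proteins are transcription factors that bind the minor groove of DNA and bend it through a shared domain, the HMG box. They are sorted into subgroups by the similarity of that domain, and members of a subgroup often act in the same cells. In the continuously growing incisor Sox2 marks stem cells of the dental epithelium, the SoxC factors Sox4, Sox11 and Sox12 are known from progenitor cells of many tissues, Sox9 with the SoxD factors Sox5 and Sox6 directs cartilage genes, and the SoxF factors Sox7, Sox17 and Sox18 act in blood and lymph vessel endothelium.

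The promoters of the SoxC genes are shown because this is the subgroup with the most members at a mean of at least 10 normalized units, and that of Sox2 because its product is the stem cell factor of the other tooth tissue. RefSeq sequences (GRCm38.p6, the mm10 coordinates) were matched for 7 of the 10 genes, namely Sox2, Sox4, Sox5, Sox6, Sox8, Sox11 and Sox12. Each sequence holds 250 bases before and 50 bases after an annotated start, written 5′ to 3′ on the strand of the gene, with capitals marking CCAAT on either strand (ATTGG on the other). Sox4 lies at chr13:28953650-28953949, Sox11 at chr12:27342669-27342968 and Sox12 at chr2:152397997-152398296, all on the minus strand, and Sox2 at chr3:34649745-34650044 on the plus strand.

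Sox4: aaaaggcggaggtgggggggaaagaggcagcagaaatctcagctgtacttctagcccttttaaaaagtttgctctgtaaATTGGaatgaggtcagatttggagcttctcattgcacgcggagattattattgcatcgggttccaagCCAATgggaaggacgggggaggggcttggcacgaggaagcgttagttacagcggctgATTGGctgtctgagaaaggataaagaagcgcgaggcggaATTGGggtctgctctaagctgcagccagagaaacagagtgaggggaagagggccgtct

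Sox11: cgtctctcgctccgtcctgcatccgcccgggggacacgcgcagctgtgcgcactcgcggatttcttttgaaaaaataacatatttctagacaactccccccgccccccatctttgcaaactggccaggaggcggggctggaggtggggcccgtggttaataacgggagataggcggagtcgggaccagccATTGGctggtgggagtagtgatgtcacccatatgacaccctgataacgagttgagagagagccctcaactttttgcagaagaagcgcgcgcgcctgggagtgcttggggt

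Sox12: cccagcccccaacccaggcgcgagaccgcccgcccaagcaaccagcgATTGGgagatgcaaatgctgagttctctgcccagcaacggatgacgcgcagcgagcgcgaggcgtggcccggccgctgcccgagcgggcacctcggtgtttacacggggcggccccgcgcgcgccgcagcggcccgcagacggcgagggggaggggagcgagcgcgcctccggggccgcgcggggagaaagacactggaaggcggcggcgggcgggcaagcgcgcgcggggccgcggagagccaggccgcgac

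Sox2: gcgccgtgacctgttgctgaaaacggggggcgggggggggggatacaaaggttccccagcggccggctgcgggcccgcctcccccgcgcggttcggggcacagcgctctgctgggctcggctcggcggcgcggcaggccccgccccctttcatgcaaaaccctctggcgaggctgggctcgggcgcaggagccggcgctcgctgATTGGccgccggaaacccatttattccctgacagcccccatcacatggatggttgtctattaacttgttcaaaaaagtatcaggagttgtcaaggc

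CCAAT, the core of a common promoter element bound by the factor NF-Y, occurred in 7 of the 12 entries matched for the Sox genes, the 4 windows shown among them, and in 37.4% of 32817 mouse promoters of the same length. The entries of Sox5 and Sox8 and 3 of the 6 Sox6 entries held none. Sox4 held 4 matches, which begin 171, 104, 47 and 8 bases before the start site, and 1.06% of all promoters held at least 4. The Sox6 entry at chr7:115846091-115846390, which is not shown, also held 4. Sox11, Sox12 and Sox2 held 1 match each, at 60, 203 and 46 bases before the start. The TATA box letters TATAAA, found on either strand in 13.6% of promoters, were in none of the 4 windows. Of the SOX-type sites, AACAAT (10.7% of promoters) was in none of them and ACAAAG (18.7%) was in that of Sox2, 206 bases before the start. No motif overlapped another. G and C made up 52.0% of the Sox4 window, 58.7% of Sox11, 76.7% of Sox12 and 66.3% of Sox2, against a median of 52.7% over all promoters. These matches are descriptions of letters and say nothing of binding, and the motifs were chosen after the expression values were known.

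The Sox genes covered a wide span of levels in the same tissue. Of the 10 genes, 6 had a mean of at least 10 normalized units (Sox4, Sox9, Sox12, Sox11, Sox5 and Sox18), a level reached by 53.6% of all listed genes, and 4 (Sox17, Sox2, Sox6 and Sox8) lay below it. The SoxC gene Sox4 and the SoxE gene Sox9 led, with means above those of 97.6% and 95.3% of the listed genes, and Sox8 was the lowest, above 28.6%. These ranks are of values not divided by gene length. Per kilobase of exon the lowest was Sox6, at 0.217 units against 0.555 for Sox8. The values of the 10 genes summed to 739, 679 and 683 units in replicates 1, 2 and 3, or 0.0750%, 0.0708% and 0.0707% of each library.

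**Figure D1:**
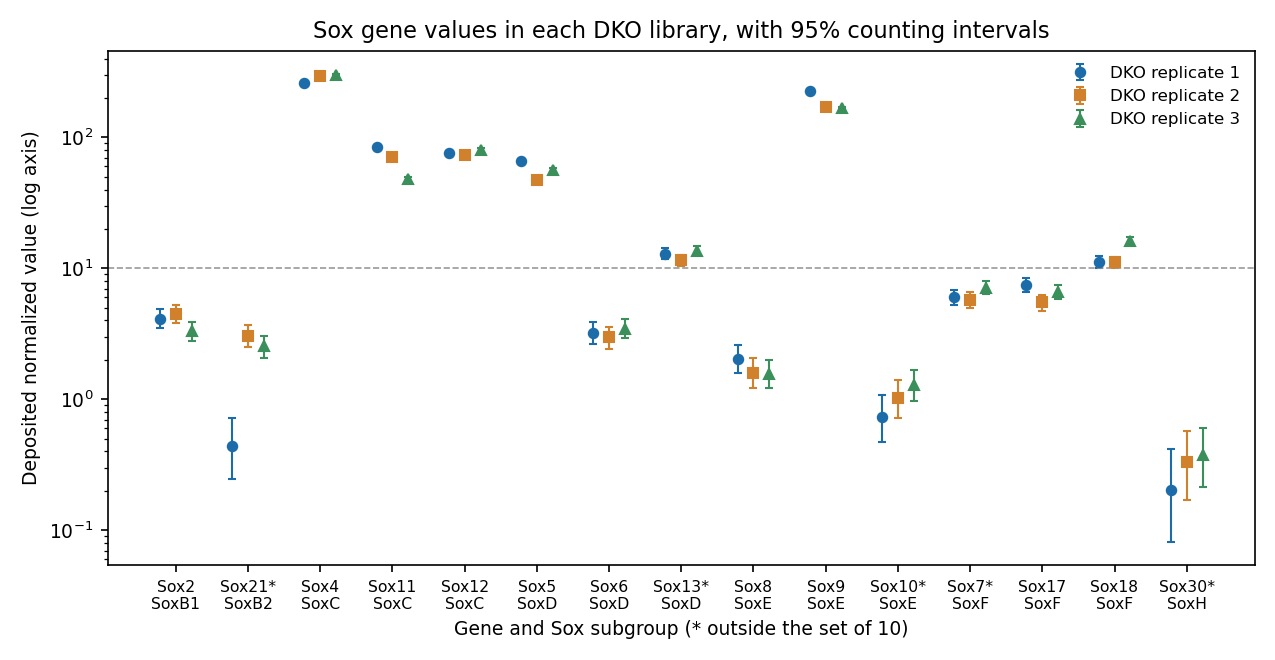
Deposited normalized value (log axis) of each listed Sox gene in the 3 DKO libraries, with exact Poisson 95% intervals for counting error and a dashed line at 10. In these values, not divided by gene length, Sox4 and Sox9 lie highest and Sox8 is the lowest of the 10 genes. Sox21, outside the set, has a replicate 1 value of 0.437 against 3.05 and 2.54.

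Depth could be judged for these genes from the values themselves. Library totals were 986401, 958773 and 966163 units. The smallest value of a library, 0.0291, 0.0275 and 0.0233, served as a step, and 44 of 45 values of the 15 listed Sox genes were whole multiples of it within 0.05 (29 of 30 for the 10 genes). The exception was Sox12 in replicate 3, which was 0.136 away from a whole multiple. Over all genes 82.4%, 82.2% and 82.3% of low values were whole multiples within 0.1, so reads were not recovered for the table in general. If 1 step is 1 read, Sox4 rested on 8974, 10646 and 12843 reads and Sox8 on 70, 58 and 67. Intervals from these numbers cover counting error only.

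All 3 SoxC factors had a mean of at least 10 units, and Sox4 was the most abundant Sox gene of the table. Sox4 (chromosome 13, 28948919 to 28953713, minus strand, a gene of 1 exon) stood at 261, 292 and 299 units in replicates 1, 2 and 3, a mean of 284 ± 20.1 (SD, n = 3). Replicate 1 was the lowest for Sox4, and its counting interval (256 to 267) lay below those of the other libraries. Sox11 (chromosome 12, 27334264 to 27342574, minus strand, 1 exon) was at 84.2, 70.5 and 47.9 units, a mean of 67.5 ± 18.3. Its order was thus the reverse of that of Sox4, with replicate 1 highest and replicate 3 lowest, and the counting intervals of the 3 libraries did not overlap. Sox12 (chromosome 2, 152393611 to 152398063, minus strand) was the steadiest of the 10 genes, at 75.9, 73.8 and 80.2 units (76.6 ± 3.28), a coefficient of variation of 4.28%.

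Levels of different genes can be compared only per length of exon. Per kilobase of exon Sox4 was at 59.3 ± 4.20 units, Sox12 at 17.2 ± 0.736 and Sox11 at 8.12 ± 2.20, with exon lengths of 4795, 4453 and 8311 bases. Sox4 exceeded Sox12 by 1.73 ± 0.10 and Sox11 by 2.75 ± 0.46 on the scale of log2(value per kilobase + 1), each in 3 of 3 libraries, and Sox11 differed from Sox12 by -1.03 ± 0.41, also in 3 of 3. The Sox4 to Sox11 difference was 2.32, 2.71 and 3.23 in replicates 1, 2 and 3, so the balance between these related factors varied more over libraries than that between Sox4 and Sox12 (1.62, 1.82 and 1.74). An exact permutation test that flips the signs of 3 differences, two-sided, cannot go below p = 0.25, which it gave for each of the 6 pairs within a subgroup (Benjamini-Hochberg adjusted p = 0.25). Without division by length the Sox11 to Sox12 difference was -0.22 ± 0.46 (exact sign-flip permutation p = 0.75), so that order rests on exon length.

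Reported target genes of SoxC factors were also measured. Tead2, a partner of the Hippo pathway effector YAP, was at 31.4, 35.4 and 35.3 units, Tubb3, a neuronal tubulin, at 17.2, 17.8 and 17.7, and Dcx, a microtubule protein of migrating neurons, at 2.68, 3.52 and 2.17. All 3 were highest in replicate 2, a library that was highest for none of the SoxC genes, but Tead2 and Tubb3 were nearly level in replicates 2 and 3. These 2 genes were lowest in replicate 1, as Sox4 was, and Dcx was lowest in replicate 3, as Sox11 was.

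Of the SoxE factors, Sox9 was abundant and Sox8 scarce. Sox9 (chromosome 11, 112782224 to 112787760, plus strand) stood at 224, 170 and 168 units, a mean of 187.4 ± 32.0 (SD, n = 3). Replicate 1 was 1.33-fold above the lowest library, and its counting interval (219 to 229) did not reach those of replicates 2 (166 to 174) and 3 (164 to 172). Sox8 (chromosome 17, 25565892 to 25570686, minus strand), a close relative that can act in place of Sox9 in several tissues, was at 2.04, 1.59 and 1.56 units (1.73 ± 0.267). Its values also had replicate 1 at the top, but here the counting intervals of all libraries overlapped. Per kilobase of exon the difference between Sox9 and Sox8 was 4.89 ± 0.15 on the log2(value + 1) scale, and the ratio of their mean levels per kilobase was 81.6. Sox10, the SoxE factor of Schwann cells, was at 0.728, 1.02 and 1.28 units, on 25, 37 and 55 reads if a step is a read.

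The SoxD factors, which lack an activation domain of their own and work beside Sox9, were also unequal, with Sox5 far above Sox6. Sox5 (chromosome 6, 143828425 to 144781977, minus strand) was at 65.7, 46.9 and 56.6 units (56.4 ± 9.36), with all 3 counting intervals apart. Sox6 (chromosome 7, 115470872 to 116038796, minus strand) was at 3.23, 2.97 and 3.47 units (3.22 ± 0.252), with overlapping intervals. Both genes are long, spanning 953553 and 567925 bases, and have similar exon lengths of 14376 and 14832 bases over all annotated transcripts. Sox5 exceeded Sox6 by 2.01 ± 0.18 per kilobase on the log2(value + 1) scale, with 18.1 as the ratio of means, and was higher in 3 of 3 libraries. Divided by the longest single transcript (7243 and 8668 bases) the difference was 2.67 ± 0.20, and per kilobase of joined exons it was 3.65 with a pseudocount of 0.1 and 0.45 with 10. Sox13, the remaining SoxD gene and outside the set, was at 12.9, 11.5 and 13.7 units.

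Cartilage genes that Sox9, Sox5 and Sox6 are reported to activate were unevenly present. Of 14 genes fixed for this list 12 were found, and 9 had a mean of at least 10. Col2a1, the main cartilage collagen, was at 3.23, 4.97 and 5.08 units, and Acan, the cartilage proteoglycan aggrecan, at 21.1, 12.1 and 10.3. The most abundant were Col11a1 (356, 229 and 429), Col11a2 (422, 141 and 412), Hapln1, a link protein of hyaluronan matrix (267, 363 and 317), and Col9a2 (108, 95.1 and 106). Like Sox9, Acan was highest in replicate 1, while Col2a1 was lowest there. The highest library was replicate 1 for 5 of the 12 genes, replicate 2 for 3 genes and replicate 3 for 4 genes, and the summed list was 1422, 1053 and 1506 units. Odontoblast markers, led by Col1a1 (9950, 4719 and 13715 units), Dspp (4959, 1072 and 3489), Phex (377, 79.7 and 339) and Sp7 (187, 182 and 176), had 4 of 5 genes lowest in replicate 2. Sox5 was also lowest there, with its counting interval below those of both other libraries. The lowest values of Sox6, Sox12, Sox17 and Sox18 were in replicate 2 as well, but its interval overlapped that of another library for each. Sox18 was level in replicates 1 and 2. Whether this cell type takes part in those differences was not tested.

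The SoxF factors were unequal, with Sox18 above Sox17 and Sox7. Sox18 was above 50.4% of the listed genes as deposited, and per kilobase above 70.4% of those with an exon length. Sox18 (chromosome 2, 181669836 to 181671640, minus strand), a regulator of lymphatic and blood vessel development, was at 11.2, 11.2 and 16.2 units (12.8 ± 2.91, SD, n = 3). Replicate 3 stood apart, with a counting interval of 15.0 to 17.4 against 10.1 to 12.3 in each of the others. Sox17 (chromosome 1, 4490931 to 4497354, minus strand), known for endoderm and arterial endothelium, was at 7.49, 5.49 and 6.62 units (6.53 ± 0.999) and was highest in replicate 1. Sox7, outside the set, was at 6.0, 5.77 and 7.13 units. Of the summed level per kilobase of the 3 SoxF genes, Sox18 took 67.0%, 70.4% and 73.8%, Sox17 15.3%, 11.8% and 10.2% and Sox7 17.7%, 17.9% and 15.96%. Sox18 exceeded Sox17 by 1.90 ± 0.29 on the log2(value per kilobase + 1) scale, in 3 of 3 libraries, and the ratio of their mean levels per kilobase was 5.79. Divided by the longest transcript the difference was 1.55 ± 0.30, and as deposited it was 0.87. Per kilobase both values are small beside a pseudocount of 10, with which the difference was 0.65.

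Endothelial markers moved between libraries beside Sox18. All 12 had a mean of at least 10 and 11 were highest in replicate 3, and their sum was 437, 438 and 574 units. Cdh5 and Pecam1, junction proteins that define endothelium, were at 76.0, 81.2 and 107 and at 66.6, 69.2 and 84.4 units, Vwf at 60.5, 67.9 and 107 and Kdr at 66.3, 70.1 and 86.3. Per 1000 units of that sum, Sox18 was at 25.5, 25.5 and 28.2, Sox7 at 13.7, 13.2 and 12.4 and Sox17 at 17.1, 12.6 and 11.5. The highest and lowest libraries thus differed 1.11-fold for Sox18 on this scale, against 1.45-fold as deposited, and 1.10-fold against 1.24-fold for Sox7. For Sox17 the same figures were 1.48-fold and 1.36-fold. Replicate 3 also had the highest sums for the odontoblast, dental mesenchyme, macrophage, and Schwann cell and nerve glia markers. The part of endothelial cells in the SoxF values was not tested. In bulk samples fewer cells of a type and less RNA per cell cannot be told apart.

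Of the 4 lymphatic markers, 1 was highest in replicate 3, namely Flt4. The lymphatic regulator Prox1 was at 0.583, 0.962 and 0.955 units, Flt4 at 13.4, 13.1 and 18.7, Lyve1 at 35.8, 34.1 and 28.8 and Pdpn at 33.9, 28.4 and 27.6, and their sum was 83.7, 76.5 and 76.0. Reported SoxF targets summed to 273, 276 and 279 units, with 4 of 7 highest in replicate 3. Among them were the adhesion molecule Vcam1 (116, 112 and 111), Efnb2, a ligand of arterial vessels (70.3, 80.6 and 68.7), Notch1 (42.5, 43.4 and 49.6) and Dll4 (18.2, 17.2 and 20.8). Cldn5, Prox1 and Robo4 are in this list and in a marker list as well.

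Sox2 was low but measured in every library. Sox2 (chromosome 3, 34650405 to 34652461, plus strand, 1 exon) was at 4.14, 4.48 and 3.31 units (3.97 ± 0.602, SD, n = 3), on 142, 163 and 142 reads if a step is a read, and the counting intervals overlapped. The RefSeq start used for its promoter, at 34649995, lies before the start of the listed gene. Sox21, a SoxB2 factor known in dental epithelium and outside the set, was at 0.437, 3.05 and 2.54 units, or 15, 111 and 109 reads, and replicate 1 was 6.98-fold below the highest library. The noncoding gene Sox2ot, whose introns contain Sox2 on the same strand, was at 1.27, 2.86 and 2.10 units and shares no exon bases with it.

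Dental epithelium was present in these libraries of mesenchyme. Its markers summed to 864, 1363 and 1026 units, 11 of 13 were highest in replicate 2, and 10 had a mean of at least 10. Krt14, set as defining, was at 122.8, 191 and 154 units, Krt5 at 180, 253 and 162, Enam at 140, 241 and 246 and Cdh1 at 126, 181 and 150. The Sox2 value was likewise highest in replicate 2 and was lowest in replicate 3, though within overlapping counting intervals. Of the 13 markers, 7 were lowest in replicate 1, 1 in replicate 2 and 5 in replicate 3. Per 1000 units of the marker sum Sox2 was at 4.79, 3.29 and 3.22, and Sox21 at 0.506, 2.24 and 2.47, the first Sox21 value resting on 15 steps. The part of epithelium in the Sox2 and Sox21 values was not tested.

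Other cells that can express Sox genes were checked in the same way. Schwann cell and nerve glia markers summed to 55.4, 61.9 and 71.9 units, with 3 of 10 at a mean of at least 10 and 6 highest in replicate 3. Erbb3, a receptor of Schwann cells, was at 14.9, 18.96 and 15.96 units, Cdh19 at 14.4, 8.19 and 8.18 and Mbp at 6.70, 8.74 and 11.6. Markers of the labelled dental mesenchyme were abundant, with a sum of 2441, 2562 and 2758 units. Prrx1 was at 559, 675 and 623 units, Pdgfra at 568, 624 and 637, Vim at 953, 958 and 1166 and Msx1 at 272, 214 and 235. Macrophage markers, led by Mrc1 (217, 297 and 287), Lyz2 (204, 285 and 308), Csf1r (173, 228 and 246) and Adgre1 (53.2, 92.5 and 88.4), were lowest in replicate 1 for 5 of 5 genes. Replicate 1 was also the lowest for Sox4 and the highest for Sox5, Sox8, Sox9, Sox11 and Sox17. The part of macrophages in these differences was not tested.

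Per kilobase of exon the 10 genes fell in the order Sox4, Sox9, Sox12, Sox11, Sox18, Sox5, Sox2, Sox17, Sox8 and Sox6. Their means were 59.3, 45.3, 17.2, 8.12, 7.92, 3.92, 1.93, 1.37, 0.555 and 0.217 units per kilobase, a 273-fold span. Of the 9 neighbouring pairs in this order, 8 had the same sign in every library (exact sign-flip permutation p = 0.25, adjusted p = 0.281 for each). The order was set by the means of the same libraries, which favours such agreement, so this count is a description. Sox11 and Sox18 did not keep theirs, with a difference of 0.02 ± 0.64 on the log2(value per kilobase + 1) scale and Sox18 the higher in replicate 3 (exact permutation p = 1). Sox4 and Sox9 were level in replicate 1 (difference 0.01) and apart in replicates 2 and 3 (0.56 and 0.61), so their order was clear in only those libraries. Divided by the longest transcript, Sox5 stood at 7.79 units per kilobase beside Sox11 and Sox18, and Sox17 (2.01) lay above Sox2 (1.93). In the order these values give, 6 of 9 neighbouring pairs had 1 sign in every library.

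**Figure D2:**
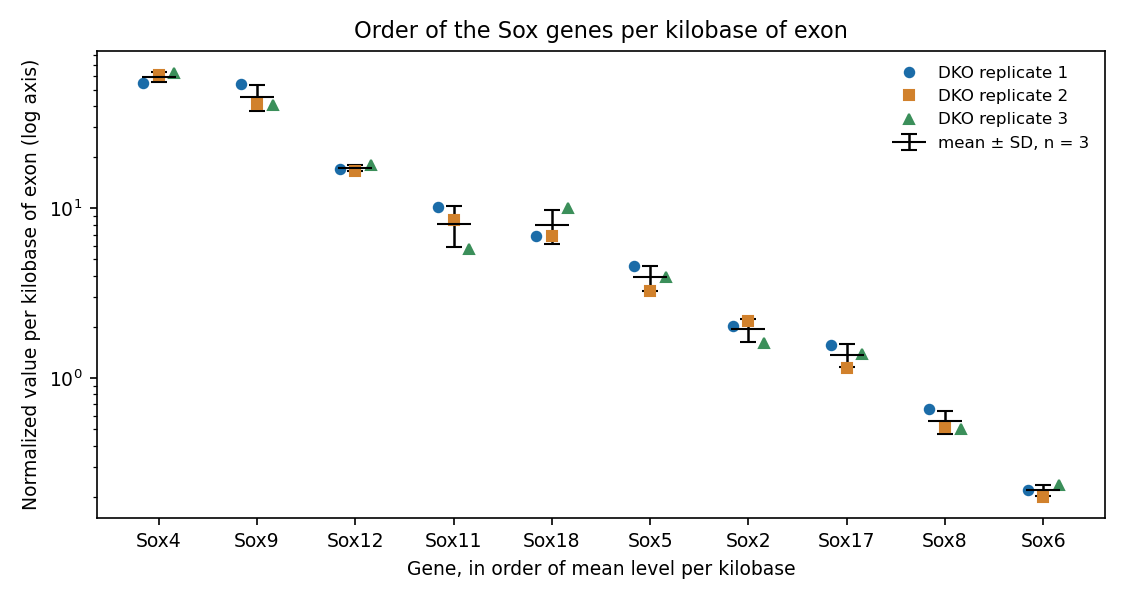
Normalized value per kilobase of exon (log axis) for the 10 Sox genes in each DKO library, with the mean and SD (n = 3). Sox4 and Sox9 lead at 59.3 and 45.3, Sox11 and Sox18 are level at 8.12 and 7.92, and Sox6 is lowest at 0.217.

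Differences between libraries were described by the range of log2(value + 1), for genes with a mean of at least 10. This range over the 3 libraries was at least 0.5 for 2 of the 6 Sox genes, Sox11 (0.80) and Sox18 (0.50), and for 8.12% of all 10388 such genes. Sox18 lies at that limit and Sox5 (0.47) and Sox9 (0.41) just under it. Sox4 (0.19) and Sox12 (0.12) had the narrowest ranges of the 6. The median range was 0.44 over these 6 Sox genes and 0.19 over the 10388 genes, which says nothing of the 4 weaker Sox genes. Without replicate 3 the range of Sox11 was 0.25 and no Sox gene reached 0.5, and without replicate 2 Sox18 fell just under it. At least 2 libraries had counting intervals that did not overlap for 7 of the 10 genes, against 51.8% of all listed genes. These 7 were Sox17 and all 6 Sox genes with a mean of at least 10, a level at which the share over all genes was 67%. Both shares over all genes take 1 step as 1 read, although reads were not recovered for the table in general, so they are approximate. The exceptions among the 10 were Sox2, Sox6 and Sox8. The coefficient of variation of Sox6 was 7.82% beside a mean counting error of 9.10%, and that of Sox8 15.4% beside 12.4%, so both were near counting error, while that of Sox2 was 15.1% beside 8.21%.

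**Figure D3:**
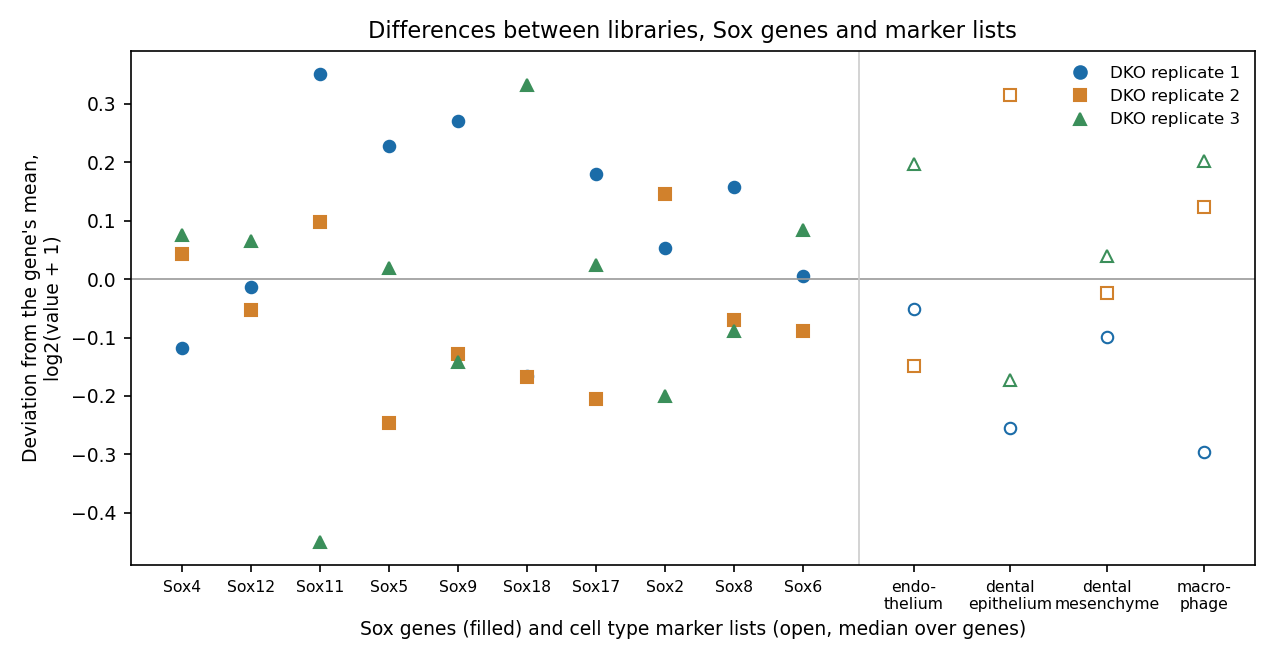
Deviation of each library from the gene's own mean on the log2(value + 1) scale, for the 10 Sox genes (filled) and as the median over 4 cell type marker lists (open). Sox11, Sox5, Sox9, Sox17 and Sox8 are highest in replicate 1. Sox18, Sox4, Sox12 and Sox6 are highest in replicate 3, as are the endothelium, dental mesenchyme and macrophage lists. Sox2 and the dental epithelium list are highest in replicate 2. The counting intervals of the libraries overlap for Sox2, Sox6 and Sox8, and the Sox18 points of replicates 1 and 2 coincide.

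The genes with the most similar pattern over the 3 libraries were sought for each of the 6 genes by the distance between deviations on the log2(value + 1) scale, among 10388 genes. This distance is not scaled by the range of a gene, so a wide range leaves few genes near and a narrow range many. The counts of near genes therefore follow the ranges given above and are not a separate result. Sox11, with the widest range, had 6 within a distance of 0.1, and the nearest were Cables1 (22.6, 19.6 and 12.9 units, distance 0.042), Galnt18 (30.9, 26.3 and 18.4) and Trim12c (69.1, 55.6 and 40.8). For Sox18 there were 45 within that distance, led by Nectin2 (22.7, 23.2 and 33.2), Flt4, a receptor of lymphatic endothelium, and Il10ra (12.8, 12.4 and 17.9). Sox5 had 131 (first Arl2, Dio3os and Emilin2) and Sox9 had 151 (first mt-Co2, Ifi27 and Gm4724). The genes with the narrowest ranges of the 6 had far more. There were 1670 for Sox4 (first Serpine2, Ubb and Smarca4, the last an ATPase of the BAF complex) and 2343 for Sox12 (Scaf1 and Reep5 among the nearest). With 3 libraries such likeness is a description of these libraries.

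Some values can include reads of genes on the other strand, because the strand setting is not given in the sources used here. Annotated antisense genes share exon bases with Sox4 (Gm26735, 2616 bases), Sox5 (Sox5os1, 1330), Sox17 (Gm37587, 804) and Sox8 (2810468N07Rik, 329), and none of these 4 is among the listed genes. Sox1, Sox3, Sox14 and Sox15 were not among the listed genes either, and Sox30, the remaining family member, was at 0.204, 0.330 and 0.373 units.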

How the data were processed

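RNA sequencing values of 3 DKO libraries were analysed, matched to columns by the number shared between column and library name. The authors deposited 1 table of normalized signal per gene. Its 75th percentile is 44.7 in every column, and no value is divided by gene length. Per the submitters' processing notes, reads were aligned with TopHat2 2.0.8 to mm10. No counter, annotation, strand setting or filter was stated (not given in the sources used here). In the listed Sox rows the start equals that of GENCODE M21 and the stop is its end plus 1, so coordinates are printed 1-based from GENCODE M21.

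Levels per kilobase divided values by the joined exons of all GENCODE M21 transcripts. Logarithms were log2(value + 1). Counting intervals are exact Poisson 95% intervals on steps of the smallest value. Within-library differences between genes were tested by flipping their signs (exact permutation, two-sided), adjusted by Benjamini-Hochberg over 9 neighbouring or 6 subgroup pairs. The range measure was tested on simulated data. Python 3.11.15, numpy 2.4.6, pandas 2.3.3 and scipy 1.17.1 were used.

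The Sox genes, the 10 marker and target lists and the tests were chosen with earlier results of these data known. By rule, all Sox genes, the 4 most abundant and the defining genes of each list, and the 3 genes nearest in pattern are named. A few genes that the rule takes are counted in their lists and not reported here.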

Additional observations from a re-analysis of the deposited data

How the results depend on the processing

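No comparison between groups, paired or not, was possible because the labels give 1 group. The 6 Sox genes with a mean of at least 10 became 10 at a minimum mean of 1 and 2 at 100, and stayed 6 with equal library totals or with any library left out. The 2 genes with a log2 range of at least 0.5 became 1 with a pseudocount of 10, 0 at a minimum mean of 100 and 0 at a threshold of 1. Leaving out each library gave 0 to 2, the lowest without replicate 3. A library left out can only narrow a range, and a larger pseudocount compresses low values. Of 9 neighbouring pairs in the order per kilobase, 8 had 1 sign in every library. Each alternative was sorted anew, so its pairs can differ, and gave 6 for values as deposited and 8 to 9 when each library was omitted. Of the pairs first formed, 5 kept their direction as deposited. The means of all 6 subgroup differences kept their direction under each alternative run, but not their size. With a pseudocount of 10 Sox9 minus Sox8 was 2.38 (4.89 with 1) and Sox11 minus Sox12 -0.59 (-1.03 with 1). As deposited, Sox11 minus Sox12 was -0.22 ± 0.46 (exact sign-flip permutation p = 0.75), with Sox11 the higher in replicate 1. The run by longest transcript was chosen after seeing the data. Mean levels of all 10 genes moved by less than 1 SD with equal totals and after 17 ribosomal RNA and mitochondrial genes were removed. Depth limits statements on Sox6 and Sox8.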
